A study of Mus musculus with 2 samples.

Results

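A set of 6 genes of the caveola were followed through the non-myocyte cells of the mouse heart: Cav1 and Cav2 (caveolins), Ptrf, Sdpr and Prkcdbp (cavins, now also called Cavin1, Cavin2 and Cavin3) and Ehd2. The members were the rows that carry these symbols in the count tables of both animals, and 6 of 6 were found among 27998 genes. The cells came from the ventricles of 2 wild-type C57BL/6 mice aged 10 to 12 weeks, with 1 droplet 3' RNA library per mouse and no treatment named in the labels. Both animals belong to 1 group, so the comparisons below are between cell classes of the same hearts. Classes were set by UMIs (tags that each mark 1 captured RNA molecule) of gate genes, none of which is a member: endothelium by Pecam1, Cdh5 and Egfl7 (at least 2 UMIs together), fibroblasts by Dcn (at least 5), mural cells by Rgs5, Kcnj8 and Vtn (at least 4) and macrophages by C1qa, C1qb and C1qc (at least 15). Endothelial cells were split further by an endocardial (Npr3 and Cytl1), an arterial (Gja5, Gja4 and Sema3g) and a venous gate (Nr2f2 and Vwf), each at 2 or more UMIs, and fibroblasts by 2 or more UMIs of Pi16.

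Caveolae are small flask-shaped pits of the plasma membrane. Caveolin-1 is the membrane protein that forms them outside striated muscle, and caveolin-2 joins it in hetero-oligomers. The cavins form a coat on the cytosolic face: cavin-1 is required for the pit, while cavin-2 and cavin-3 are regulatory subunits, and EHD2 is a membrane ATPase at the neck that holds the pit at the surface. Capillary endothelium of the heart is known for its density of caveolae, where they take part in transport, in control of endothelial nitric oxide synthase and in buffering membrane tension.

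Of the members, Cav2 (chr6:17281185-17289115) and Cav1 (chr6:17306335-17341452) are neighbours on the plus strand of build GRCm38, with 17.22 kb between the end of Cav2 and the start of Cav1. Sdpr lies at chr1:51289126-51302960 (plus strand), Ptrf at chr11:100956733-100970887, Prkcdbp at chr7:105480083-105482300 and Ehd2 at chr7:15946958-15967567 (all minus strand). Antisense gene models overlap Cav1 and Cav2 (Gm15581) and Sdpr (9330175M20Rik), and both had 0 UMIs in the 4 classes. A further model on the opposite strand, Gm45667, overlaps Prkcdbp and has no row in the count tables, so its UMIs could not be checked. Promoter sequence was read from RefSeq (GRCm38.p6), which matched 5 of 6 members, Prkcdbp being the exception. The 250 bases before the start of transcription are shown for the 3 members lowest in fibroblasts relative to endothelium (Cav1, Cav2, Sdpr). Ptrf, which fibroblasts shared, is shown for contrast. All read 5′ to 3′ on the strand of the gene, with the motifs found in capitals.
Cav1: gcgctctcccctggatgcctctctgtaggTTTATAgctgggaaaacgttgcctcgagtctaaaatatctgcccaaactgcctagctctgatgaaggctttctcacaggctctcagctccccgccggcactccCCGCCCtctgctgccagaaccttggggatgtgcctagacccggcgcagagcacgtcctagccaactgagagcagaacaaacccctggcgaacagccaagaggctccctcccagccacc
Cav2: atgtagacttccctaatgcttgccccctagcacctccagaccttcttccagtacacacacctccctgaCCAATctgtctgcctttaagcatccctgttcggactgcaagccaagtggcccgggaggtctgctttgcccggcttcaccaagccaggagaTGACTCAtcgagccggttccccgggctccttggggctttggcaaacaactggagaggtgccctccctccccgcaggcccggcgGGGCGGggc
Sdpr: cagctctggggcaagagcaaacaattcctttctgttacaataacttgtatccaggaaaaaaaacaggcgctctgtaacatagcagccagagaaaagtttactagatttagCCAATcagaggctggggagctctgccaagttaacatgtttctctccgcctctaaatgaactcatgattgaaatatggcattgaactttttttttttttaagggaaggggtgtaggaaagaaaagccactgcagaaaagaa
Ptrf: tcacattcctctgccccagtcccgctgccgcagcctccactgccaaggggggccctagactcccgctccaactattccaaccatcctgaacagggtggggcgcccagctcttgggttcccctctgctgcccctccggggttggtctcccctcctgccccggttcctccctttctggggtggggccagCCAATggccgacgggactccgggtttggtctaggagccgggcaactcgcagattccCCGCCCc
These windows are chr6:17306085-17306334, chr6:17280935-17281184, chr1:51288876-51289125 and chr11:100970618-100970867. They were cut at RefSeq starts, whereas the gene positions above came from GENCODE. For Ptrf the RefSeq start is chr11:100970617, so its window lies inside the gene position given above. Motifs searched on both strands were TATAAA (the TATA box), GGGCGG (the core of a GC box), CCGGAA (the core of an ETS site), CCAAT (the CCAAT box), TGANTCA (an AP-1 type site) and the CArG box, and the hits do not overlap one another in these windows. GGGCGG was found in Cav1, Cav2, Ptrf and Ehd2, and in 32.7% of 32851 promoters of the same length. CCAAT was found in Cav2, Ptrf, Sdpr and Ehd2 (33.9% of all promoters), TATAAA in Cav1 alone (12.4%) and TGANTCA in Cav2 alone (6.75%). The TATAAA of Cav1 lay 221 bases before the start and on the strand opposite the gene. The Sdpr window had the lowest GC content of the printed ones, 40.4%, against 59.6% for Cav1, 62% for Cav2, 67.6% for Ptrf and a mean of 53.2% over all promoters. No motif of the list was in all 4 windows, and the matches describe letters only. Cav1 and Ptrf each had a second promoter entry, not shown. That of Cav1 (chr6:17307390-17307639) held none of the motifs, so its GGGCGG and TATAAA belong to the printed window alone. That of Ptrf (chr11:100970616-100970865) held the same motifs as the printed one.

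The tables held 21355383 UMIs over 7732 barcodes in mouse 1 and 15174548 over 6367 in mouse 2. After filters and doublet removal 6608 and 5687 cells remained, with a median of 2542.5 and 2194 UMIs per cell, and 65 barcode sequences occurred in both libraries. Passing exactly 1 gate were 929 and 1269 endothelial cells, 1860 and 1303 fibroblasts, 63 and 42 mural cells, and 2997 and 2361 macrophages. Each class carried its own fixed markers that the gates did not use: the 5 endothelial markers (Cldn5, Esam, Tie1, Cd93, Ecscr) summed to 2497 and 2662 CPM (UMI counts scaled to the class total, defined below) in endothelium, and the 5 mural markers (Pdgfrb, Notch3, Abcc9, Higd1b, Cspg4) to 4988 and 4746 in mural cells. The mural class also held 1020 and 1075 CPM of the endothelial markers and 1075 and 1021 CPM of smooth muscle markers, of which Cnn1 was at 0. The 7 cardiomyocyte markers were present in every class at 72 to 658 CPM, higher in mouse 1 in all 4, and the 5 adipocyte markers were at 0. A level below is the UMIs of a gene in the summed cells of 1 class in 1 mouse, in CPM of all their UMIs; since 1 molecule gives 1 tag near its 3' end, no correction for gene length applies, but capture can differ between genes.

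Cav1, which encodes the main structural protein, stood at 946 CPM in the endothelium of mouse 1 and 1154 in mouse 2, a mean of 1050 ± 147 (SD, n = 2). In mural cells it was 188 and 233, in fibroblasts 10.4 and 15.1, and in macrophages 9.63 and 10.2. Endothelium lay above mural cells, and mural cells above both other classes, without overlap. Endothelium exceeded fibroblasts by a log2 fold change of 6.32 ± 0.18 (SE; edgeR, adjusted p = 3.9e-21), mural cells by 2.74 ± 0.22 (2.5e-10) and macrophages by 6.29 ± 0.18 (1.6e-21). Fibroblasts and macrophages were not called different (log2 fold change -0.03 ± 0.20, adjusted p = 0.91).

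Cav2, its oligomer partner, was 649 and 977 CPM in endothelium (mean 813 ± 232, SD, n = 2), 166 and 304 in mural cells, 8.14 and 15.1 in fibroblasts and 36.7 and 40.1 in macrophages. Its order thus departed from that of Cav1 at the low end: macrophages exceeded fibroblasts in both mice (fibroblasts over macrophages, log2 fold change -2.15 ± 0.19, adjusted p = 1.3e-10). Endothelium exceeded fibroblasts by 6.10 ± 0.20 (2.6e-20), mural cells by 2.24 ± 0.24 (5.2e-08) and macrophages by 3.95 ± 0.16 (4.7e-18). Cav1 made up 59.3% (exact 95% interval 57.4 to 61.2) and 54.1% (52.6 to 55.6) of Cav1 plus Cav2 UMIs in endothelium but 20.8% (17.0 to 25.0) and 20.2% (16.05 to 25.0) in macrophages. The macrophage share of Cav1 was below the endothelial one in each mouse, with intervals that do not meet. In macrophages without any UMI of 8 endothelial genes (the 3 gate genes and the 5 markers; 2203 and 1836 cells), Cav2 was 34.9 and 38.6 CPM, close to its level in all macrophages, and Cav1 was 5.99 and 9.01.

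Ptrf, the cavin without which caveolae do not form, was 518 and 627 CPM in endothelium (572 ± 77.0, SD, n = 2), 118 and 181 in fibroblasts, 111 and 233 in mural cells and 9.52 and 8.51 in macrophages. Fibroblasts and mural cells overlapped and were not called different (0.33 ± 0.31, adjusted p = 0.59). Endothelium was higher than fibroblasts by 1.90 ± 0.15 (2.2e-11), and fibroblasts than macrophages by 3.63 ± 0.18 (3.4e-16).

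Sdpr, the cavin that bends membrane into tubules when in excess, reached 1496 and 2287 CPM in endothelium (1892 ± 560, SD, n = 2). It was 654 and 1039 in mural cells, 35.0 and 64.8 in fibroblasts and 8.66 and 12.2 in macrophages, and none of these 4 ranges overlapped. The log2 fold change of endothelium was 5.22 ± 0.16 over fibroblasts (9.7e-21), 1.59 ± 0.16 over mural cells (2.5e-08) and 7.07 ± 0.18 over macrophages (2.3e-22). Fibroblasts lay below mural cells (log2 fold change -3.63 ± 0.19, adjusted p = 2.3e-14), close to the distances seen for Cav1 (-3.59 ± 0.34, 3.4e-09) and Cav2 (-3.86 ± 0.36, 3.2e-09).

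Prkcdbp, the cavin first described as a binding protein of protein kinase C delta, was the only member not called different between endothelium and fibroblasts. It stood at 541 and 389 CPM in endothelium (465 ± 108, SD, n = 2) and at 372 and 469 in fibroblasts, so that mouse 1 had more in endothelium and mouse 2 more in fibroblasts. The 2 classes were not called different (0.08 ± 0.15, adjusted p = 0.72), with 0.46 in mouse 1 alone and -0.30 in mouse 2 alone. Mural cells had 255 and 287 CPM, below both by log2 fold changes near 1 (endothelium 1.21 ± 0.25 higher, adjusted p = 0.00095; fibroblasts 1.13 ± 0.25 higher, 0.0019), and macrophages 6.49 and 5.32.

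Ehd2, the neck ATPase, had the lowest mean of the members in endothelium, mural cells and macrophages but not in fibroblasts. It was at 209 and 314 CPM in endothelium (261 ± 74.1, SD, n = 2), 66.5 and 179 in mural cells, 61.0 and 90.6 in fibroblasts and 2.06 and 2.28 in macrophages. As with Ptrf, fibroblasts and mural cells overlapped (log2 fold change -0.13 ± 0.36, adjusted p = 0.89), and endothelium was higher than fibroblasts by 1.73 ± 0.15 (1.3e-10). The plot of levels by group gives all 6 members in the 8 finer groups.

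**Figure D1:**
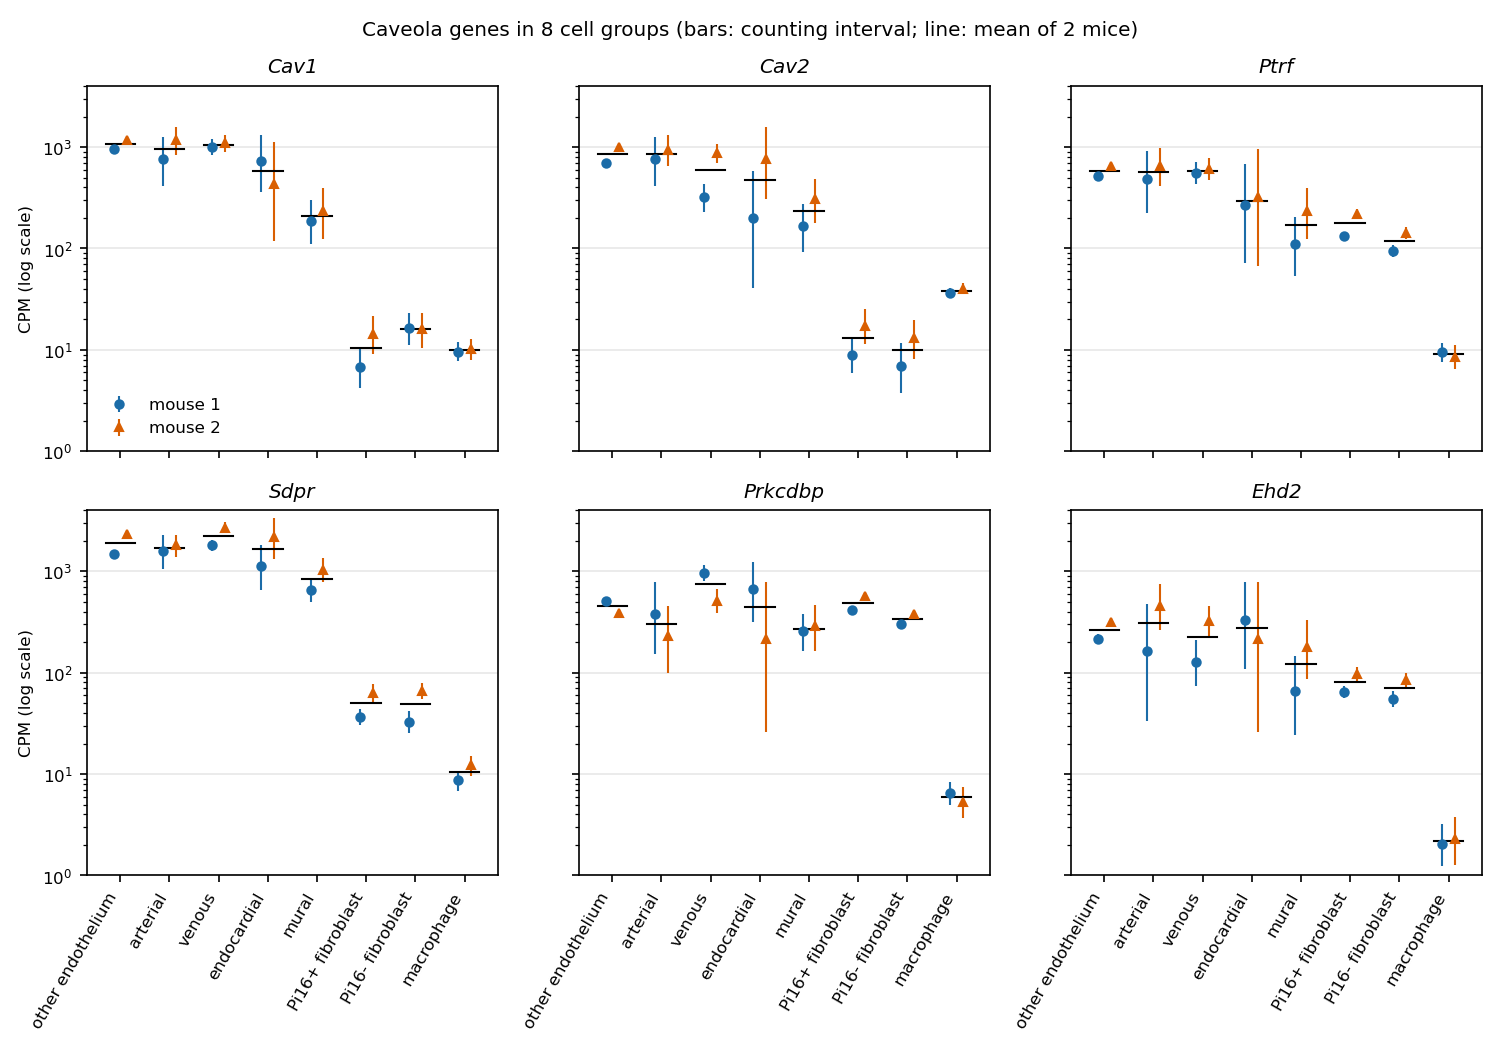
Level of each member in CPM (log axis) in 8 groups of cells; circles are mouse 1, triangles mouse 2, vertical bars exact 95% Poisson intervals (counting error only) and horizontal lines the mean of 2 mice. Both fibroblast groups lie below mural cells for Cav1, Cav2 and Sdpr; for Ptrf and Ehd2 they overlap mural cells and lie below other endothelium, and for Prkcdbp the Pi16+ cells overlap other endothelium.

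Counted over members, 5 of 6 were called higher in endothelium than in fibroblasts and none the other way, where 30.8% of the 11683 genes tested were called in either direction (14.4% higher in endothelium, 16.4% in fibroblasts). Against mural cells 6 of 6 were higher in endothelium (background 11.8%: 7.28% higher in endothelium, 4.55% in mural cells). With cells that pass several gates kept in each class, 0 of 6 were called against mural cells and the log2 fold changes were 0.57 to 0.90 (Cav1 0.90, adjusted p = 0.11). Against macrophages 6 of 6 were higher in endothelium (33.3%: 16.8% higher in endothelium, 16.5% in macrophages). Fibroblasts against mural cells gave 4 calls, Prkcdbp higher in fibroblasts and Cav1, Cav2 and Sdpr higher in mural cells (background 11.2%: 7.17% higher in fibroblasts, 4.03% in mural cells). Fibroblasts against macrophages gave 5 calls, Ptrf, Sdpr, Prkcdbp and Ehd2 higher in fibroblasts and Cav2 higher in macrophages (37.8% of genes called; 17.8% of genes higher in macrophages). Mural cells exceeded macrophages in 6 of 6 (22.6%: 9.12% higher in mural cells, 13.5% in macrophages), by 1.70 ± 0.31 for Cav2 (adjusted p = 7.4e-05) up to 5.49 ± 0.21 for Sdpr (3.6e-18). A gene counted as called when its log2 fold change was 1 or more in size with an adjusted p (Benjamini-Hochberg, whole table) under 0.05.

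Scaling moved the balance of calls for every pair but endothelium and fibroblasts. With TMM factors 61.5% of called genes were higher in endothelium than in mural cells, against 39.15% without the factors and 44.7% with DESeq2. The same share for endothelium over macrophages was 50.4%, 66.9% and 50.55%, for fibroblasts over mural cells 64.0%, 38.6% and 44.15%, for fibroblasts over macrophages 52.9%, 65.95% and 50.85%, and for mural cells over macrophages 40.4%, 73.6% and 56.3%. The factors moved the median of all genes by 0.41 for endothelium over mural cells, -0.42 for endothelium over macrophages and -0.83 for mural cells over macrophages (log2). Without them, Prkcdbp was no longer called between endothelium and mural cells (0.80, under the fold threshold) or between fibroblasts and mural cells (0.66, adjusted p = 0.12), and the other calls of members between the 4 classes held.

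**Figure D2:**
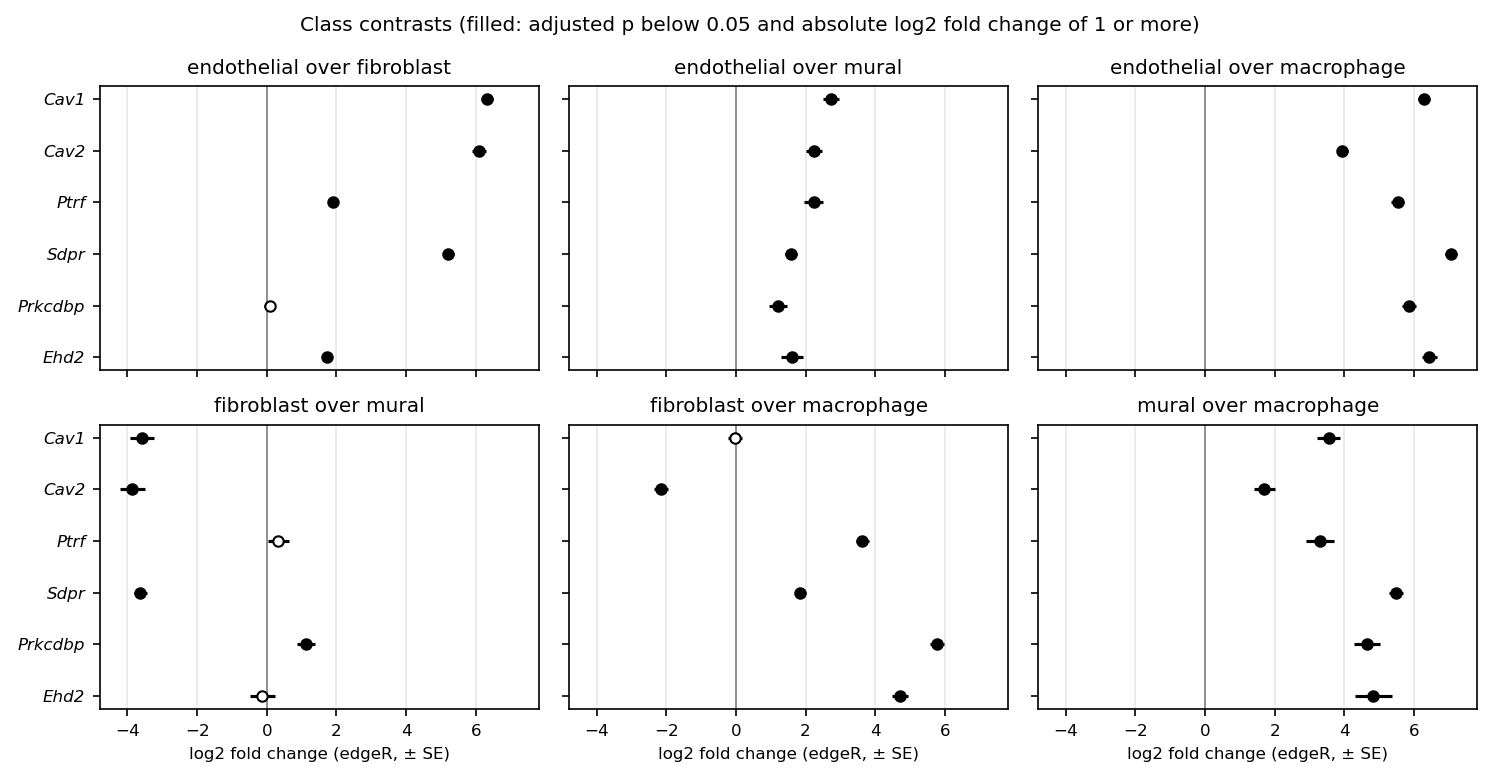
Log2 fold change of each member in the 6 class pairs (edgeR, horizontal bars ± SE), filled where called. Endothelium over fibroblasts runs from 6.32 for Cav1 down to 0.08 for Prkcdbp, while endothelium over macrophages stays between 3.95 and 7.07.

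Set against endothelium, the members fell into those that were low in fibroblasts and those that fibroblasts shared. As a share of the endothelial level of the same mouse, fibroblasts had 1.10 and 1.31% for Cav1, 1.25 and 1.55% for Cav2 and 2.34 and 2.83% for Sdpr. The 5 endothelial markers, measured in the same fibroblasts, ranged from 0.42 to 1.50% of their endothelial level. Cav1 and Cav2 in fibroblasts thus lay at or just above the level of endothelial genes there, and Sdpr somewhat above it. By contrast Ptrf was at 22.8 and 28.9%, Ehd2 at 29.2 and 28.9% and Prkcdbp at 68.7 and 120.6%. In CPM the division was not clean between mice, as the ranges of Sdpr (35.0 and 64.8) and Ehd2 (61.0 and 90.6) in fibroblasts overlapped. Within each mouse Ehd2 was above Sdpr. Sdpr was also called higher in fibroblasts than in macrophages (log2 fold change 1.85 ± 0.17, edgeR, adjusted p = 1.1e-10). In fibroblasts without any UMI of the 8 endothelial genes (1672 and 1145 cells), Cav1 was 9.61 and 13.4 CPM, Cav2 7.05 and 13.4, and Sdpr 31.4 and 55.7, each slightly below its level in all fibroblasts.

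Macrophages had 0.53 to 1.84% of the endothelial level for Cav1, Ptrf, Sdpr, Prkcdbp and Ehd2. The endothelial markers Cldn5, Esam, Tie1 and Ecscr lay between 0.52 and 1.24% there in the same cells. These 5 members thus overlapped the markers or, for Ptrf and Prkcdbp in mouse 2 and Ptrf in mouse 1, lay slightly above them. Cav2 was higher, at 5.65 and 4.10%. Cd93, the fifth marker, was at 21.4 and 15.3%. In mural cells every member reached 19.9 to 73.7% of the endothelial level, but the endothelial markers reached 6.21 to 94.3% there. Of these Esam was at 94.3 and 81.5%, and the others ran from 6.21 to 31.5%, both values of Cldn5. Ptrf, Sdpr, Prkcdbp and Ehd2 lay above the markers other than Esam in both mice, Cav1 and Cav2 in mouse 1 alone. Mural cells without any UMI of the 8 endothelial genes, Esam included, numbered 23 and 15. They had Cav1 at 183 and 118 CPM and Sdpr at 587 and 888, above fibroblasts in both mice. Their Cav2 rested on 1 and 4 UMIs (36.7 and 237 CPM). With those cells alone as the mural class, Cav2 was no longer called against fibroblasts (-2.50, adjusted p = 0.072) or against macrophages (0.35, 0.79).

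**Figure D3:**
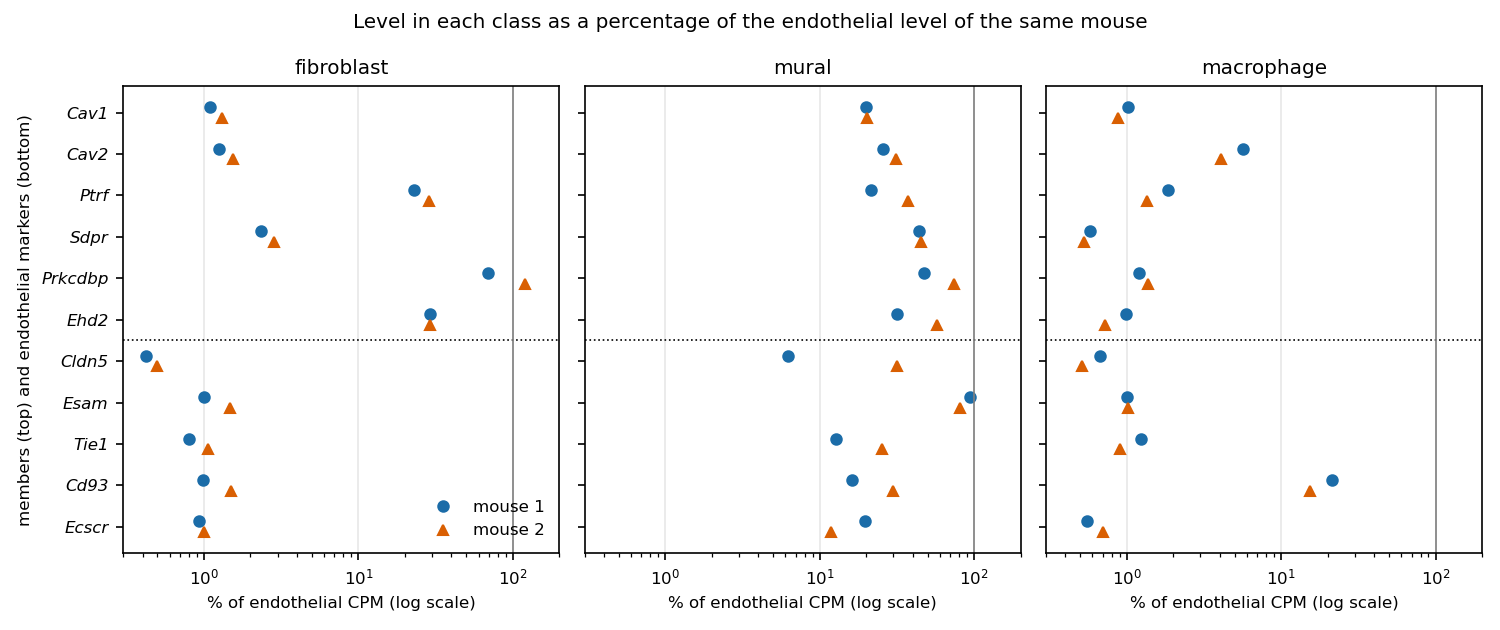
Level in fibroblasts, mural cells and macrophages as a percentage of the endothelial level of the same mouse (log axis), for the 6 members and, under the dotted line, the 5 endothelial markers; the grey line is 100%. In fibroblasts Cav1, Cav2 and Sdpr sit at 1.10 to 2.83%, near the markers, and Ptrf, Ehd2 and Prkcdbp at 22.8 to 120.6%.

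The share of cells with a UMI, after each cell was thinned to 1000 UMIs, was taken from the same counts. In fibroblasts it set Prkcdbp and Ptrf apart from Cav1 and Cav2, with Ehd2 and Sdpr between them. In endothelium Sdpr was seen in 73.1% (exact 95% interval 70.1 to 76.0) and 82.6% (80.3 to 84.9) of cells, Cav1 in 60.5 and 67.5%, Cav2 in 45.8 and 59.9%, Ptrf in 38.0 and 44.9%, Prkcdbp in 35.0 and 27.8% and Ehd2 in 18.7 and 24.6%. Among fibroblasts Prkcdbp was seen in 29.2% (27.1 to 31.3) and 36.1% (33.5 to 38.8) and Ptrf in 10.4 and 15.0%. Cav1 was seen in 0.81% (0.46 to 1.34) and 1.27% (0.73 to 2.05) of them, and Cav2 in 0.87 and 1.27%. Ehd2 (5.58 and 9.18%) and Sdpr (2.98 and 6.18%) lay between. Their ranges over the 2 mice overlapped, but Ehd2 was above Sdpr in each mouse. The Cav1 share in macrophages, set beside as background at median depths of 2845 and 2616 UMIs against 2752 and 2471 in fibroblasts, was 0.74% (0.46 to 1.11) and 1.17% (0.77 to 1.69), with intervals that overlap those of fibroblasts. Without thinning, Cav1 was seen in 74.6 and 77.1% of endothelial cells and 2.74 and 3.68% of fibroblasts. A median of 3 of the 6 members was seen per thinned endothelial cell in each mouse, and 56.5 and 68.7% of these cells had at least 3, against 0.76 and 2.14% of fibroblasts. No member at all was seen in 93.7 and 92.0% of macrophages and 2.96 and 1.29% of endothelial cells. The 122 and 405 kept cells with fewer than 1000 UMIs were left out of these shares.

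**Figure D4:**
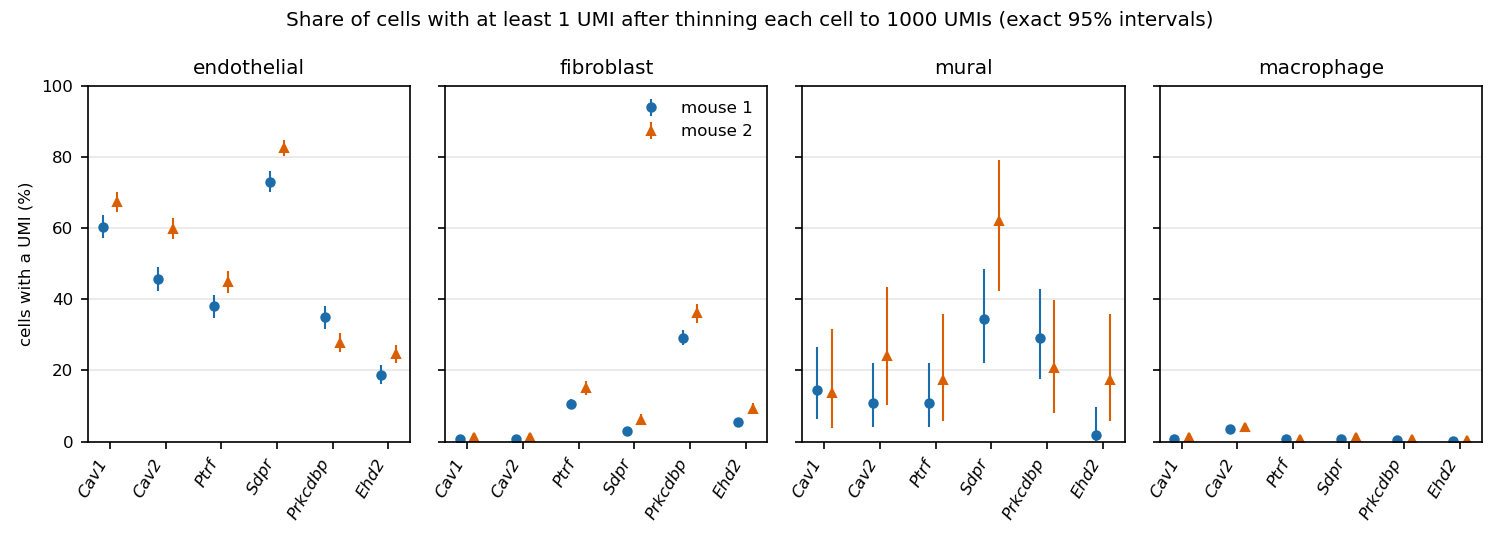
Percentage of cells with at least 1 UMI of each member after thinning to 1000 UMIs per cell, by class and mouse, with exact 95% intervals (counting error only). Endothelial shares run from 18.7 to 82.6%, fibroblasts reach 29.2 and 36.1% for Prkcdbp alone, and macrophages stay at or below 4.11%.

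Over the 8 finer groups, Cav1 ran from other endothelium (mean 1076 CPM) through venous (1048) and arterial cells (963), whose ranges overlapped in turn. Endocardial (582) and mural cells (211) came next and did not overlap their neighbours. The gaps above and below endocardial cells were within counting error. In mouse 1 endocardial cells had 730 CPM (365 to 1307) and arterial cells 757 (414 to 1271). In mouse 2 endocardial cells had 433 (118 to 1109) and mural cells 233 (124 to 398). Sdpr ran from venous (2239 CPM) through other endothelial (1887), arterial (1682) and endocardial cells (1647), all overlapping in turn. A gap to mural cells (846) and a further gap to fibroblasts (49.8 in Pi16+ and 49.6 in Pi16- cells) came next. The gap to mural cells was within counting error (endocardial 1129 CPM in mouse 1, 657 to 1807, and mural 1039 in mouse 2, 789 to 1343). Prkcdbp had no gap before macrophages: venous cells (741 CPM), Pi16+ fibroblasts (491), other endothelium (450), endocardial cells (440), Pi16- fibroblasts (338), arterial (303) and mural cells (271) overlapped in turn. These orders are descriptions with n = 2 mice.

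The make-up of the cavin coat genes differed between classes. Of Ptrf, Sdpr and Prkcdbp UMIs together, Sdpr took 58.6% (57.0 to 60.1) in the endothelium of mouse 1 and 69.3% (68.1 to 70.4) in mouse 2, and Prkcdbp 21.2% (19.9 to 22.5) and 11.8% (11.0 to 12.6). In fibroblasts the order was turned, with Prkcdbp at 70.8% (69.1 to 72.5) and 65.6% (63.7 to 67.5) and Sdpr at 6.68% (5.78 to 7.67) and 9.07% (7.94 to 10.3). Mural cells were near endothelium, with Sdpr at 64.1 and 66.7%. Ptrf took a like part in endothelium and fibroblasts, 20.3 and 19.0% against 22.5 and 25.3%. The 2 classes thus differ in which regulatory cavin is captured beside Ptrf.

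**Figure D5:**
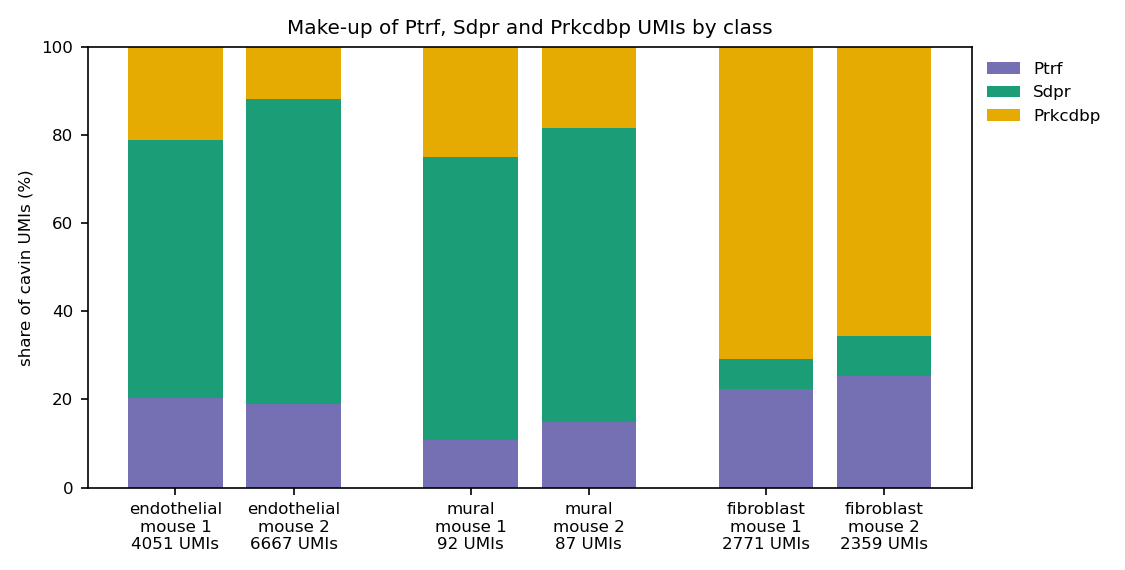
Share of Ptrf, Sdpr and Prkcdbp in the UMIs of the 3 genes together, by class and mouse, with the number of UMIs under each bar. Sdpr fills 58.6 to 69.3% of the bar in endothelium and mural cells, and Prkcdbp 65.6 to 70.8% in fibroblasts.

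Within endothelium, cells were first assigned to a subgroup only if they passed 1 subgate, which left 7 and 6 endocardial, 13 and 20 arterial, 63 and 55 venous and 812 and 1154 other endothelial cells. In all, 4 members were called lower in endocardial than in other endothelium (Cav1, Cav2, Ptrf and Sdpr). There 4.66% of 10046 genes were called (0.667% higher in endocardial cells, 3.99% in other endothelium). This count rests on 15 endocardial UMIs of Cav1 in all, 3 and 7 of Cav2, 4 and 3 of Ptrf and 17 and 20 of Sdpr. The median log2 fold change was -1.59 over the members and -1.89 over all genes, so the members were no lower than genes at large. TMM factors of the endocardial sums were 1.72 and 2.17 and moved the median of all genes by -1.04, and without them or with DESeq2 0 members were called. Of all called genes 14.3% were higher in endocardial cells with the factors, 75.5% without and 81.4% with DESeq2. The sign of the 4 members was kept, with smaller folds: -1.09 for Cav1, -1.33 for Cav2, -1.30 for Ptrf and -0.56 for Sdpr with DESeq2, and -0.78, -0.99, -0.98 and -0.23 without TMM factors. Prkcdbp and Ehd2, not called, changed sign without the factors (0.12 and 0.19).

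Cells that pass a subgate, whether or not they pass another, gave 40 and 40 endocardial, 16 and 20 arterial and 97 and 89 venous cells, and were compared with the same other endothelium. Endocardial cells so defined had Cav1 at 498 and 499 CPM against 967 and 1184 in other endothelium, Cav2 at 213 and 328 against 701 and 1012, and Ptrf at 342 and 184 against 523 and 646. In each case both endocardial values lay below both others. The log2 differences were -1.41 ± 0.21 (adjusted p = 2.6e-06), -1.97 ± 0.25 (6.4e-08) and -1.47 ± 0.28 (0.00016), and without TMM factors -1.11 ± 0.21 (0.00013), -1.67 ± 0.25 (2.3e-06) and -1.17 ± 0.28 (0.0045). These 3 of 6 members were called under both scalings, against 6.42% and 6.07% of genes tested. Most of these endocardial cells were also in the venous sum of the same fit, which treats its sums as independent. What this does to the p-values of the fit, here and below, was not tested. Sdpr did not follow: 1594 and 1496 CPM in endocardial cells against 1465 and 2308 elsewhere, with -0.56 ± 0.18 (0.041) with the factors and -0.25 ± 0.17 (0.51) without, neither reaching the fold threshold. Prkcdbp (370 and 367 against 513 and 386 CPM) and Ehd2 (256 and 197 against 215 and 315) were not called under either.

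The 5 endocardial markers summed to 384 and 407 CPM in these cells, of which Cdh11 alone gave 285 and 276, against 16.8 and 23.8 in other endothelium, and Fst was at 0 in both. Cldn5 was at 0 in these 40 and 40 cells, against 601 and 916 CPM in other endothelium, and the 5 capillary markers summed to 356 and 315 CPM against 7141 and 5395. They also carried 512 and 289 CPM of fibroblast markers, of which Col1a1 and Pdgfra were at 0. Most of these endocardial cells pass several subgates. In the cells of several subgates the lymphatic markers, given below, lay above those of other endothelium in both mice. The name endocardial thus refers to the gate alone. The part of other cells, lymphatic cells included, in these values and in the levels of the members was not tested. The arrangement in which endothelial cells pass several subgates was added after the data were seen.

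Venous cells were not called different from other endothelium for any member (0 of 6, where 2.25% of genes were called, 1.12% in each direction; by unadjusted p, Cav2 and Prkcdbp were below 0.05). Cav2 was 320 and 869 CPM in the venous group and 701 and 1012 in other endothelium, with -0.81 ± 0.21 (adjusted p = 0.0072, under the fold threshold). With every cell that passes the venous gate it was 285 and 630 CPM, -1.10 ± 0.19 (5.8e-05) with TMM factors and -0.95 ± 0.19 (0.00048) without, in a comparison with 4.66% and 4.59% of genes called. The 34 and 34 cells by which this group is wider than the venous-only one pass several subgates, nearly all of them the endocardial gate, and had Cav2 at 209 and 269 CPM; the venous-only cells gave no call. Lymphatic markers summed to 1842 and 5425 CPM in those cells against 470 and 1495 in other endothelium. The part of lymphatic cells in the Cav2 value was not tested for this wider group.

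Prkcdbp was the single member called lower in arterial than in other endothelium (-1.30 ± 0.38, adjusted p = 0.033; background 1.65%: 0.259% higher in arterial cells, 1.39% in other endothelium), at 379 and 228 CPM against 513 and 386. It was also the single member lower in arterial than in venous cells (-1.83 ± 0.38, 0.00044; 1.50%: 0.448% higher in arterial cells, 1.06% in venous cells), where the venous level was 969 and 513 CPM. Neither call held without mouse as a replicate block or with DESeq2. The first was lost as well without TMM factors, without the low-count filter and in most other alternatives. Endocardial against arterial cells gave 0 calls (0.956% of genes: 0.299% higher in endocardial, 0.657% in arterial cells; by unadjusted p Cav1, Cav2 and Ptrf were below 0.05, and DESeq2 also gave 0), and endocardial against venous cells 4 (1.65%: 0.129% higher in endocardial, 1.52% in venous cells; Cav1, Ptrf, Sdpr and Prkcdbp), none of which held without the replicate block, without TMM factors or with DESeq2. With subgates that share cells, Cav2 was called lower in endocardial than in arterial cells (-1.30 ± 0.33, adjusted p = 0.025; 1.45% of genes called, and 1.41% without TMM factors). No member was then called for arterial against other endothelium (0.946% and 0.698% of genes called under the 2 scalings) or arterial against venous cells (1.01% and 0.918%). Endocardial and venous cells so defined cannot be compared, since all but 7 and 6 of the 40 and 40 endocardial cells are in both groups (0 members and 0.392% and 0.306% of genes called). The called genes higher in the first group were 15.7%, 71.8% and 92.3% for arterial over other endothelium (with TMM factors, without, and with DESeq2), 50%, 70.7% and 77.5% for venous over other endothelium, 31.25%, 51.25% and 46% for endocardial over arterial, 7.83%, 57.1% and 54.8% for endocardial over venous, and 29.8%, 60.75% and 82.7% for arterial over venous cells.

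Fibroblasts above the Pi16 gate numbered 1054 and 558, and those below it 806 and 745. No member was called between them (0 of 6, where 1.70% of genes were called, 0.826% higher in Pi16+ and 0.876% in Pi16- cells; DESeq2 also gave 0, and by unadjusted p Cav1, Ptrf and Prkcdbp were below 0.05). Prkcdbp was 416 and 567 CPM in Pi16+ and 300.3 and 376 in Pi16- cells, and Ptrf 132 and 221 against 94.8 and 143. Both were higher in Pi16+ cells in each mouse, by 0.52 ± 0.18 (adjusted p = 0.086) and 0.54 ± 0.19 (0.10). Cav1 had its lower values in Pi16+ cells, 6.73 and 14.3 CPM against 16.4 and 15.9978 (log2 fold change -0.76 ± 0.33, adjusted p = 0.33). Sdpr (36.4 and 63.2 against 32.8 and 66.4 CPM) overlapped.

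Other genes that act at caveolae were taken from a list of 24, of which 21 passed the filter on low counts among the 4 classes. Between endothelium and fibroblasts 8 were higher in endothelium and 6 in fibroblasts, where 14.4% and 16.4% of all genes were called, with a median log2 fold change of 0.25 against -0.03 over all genes. Higher in endothelium were Nos3, the endothelial nitric oxide synthase held inactive by caveolin-1 (63.1 and 89.2 CPM against 0.57 and 1.82; 6.01 ± 0.35, adjusted p = 1.1e-14), and Nostrin, an adaptor that moves that enzyme from the membrane (156 and 110 against 2.65 and 1.21; 5.94 ± 0.26, 3.4e-17). Cd36, the fatty acid receptor whose surface level depends on caveolae, was 3663 and 3360 CPM against 34.3 and 40.9 (6.50 ± 0.20, 8.8e-21). All 3 had endothelial values far above fibroblasts in both mice.

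The relatives of Ehd2 split by class. Ehd1 was 433 and 394 CPM in endothelium and 79.5 and 78.5 in fibroblasts (2.34 ± 0.17, adjusted p = 1.6e-12), and Ehd4 124 and 94.6 against 22.5 and 32.1 (1.96 ± 0.19, 5.7e-10). Macrophages, with Ehd2 at 2.06 and 2.28 CPM, had Ehd4 at 337 and 330, above endothelium (endothelium over macrophages -2.04 ± 0.16, 1.2e-11). Dnm3, a dynamin, was 73.8 and 93.1 CPM in endothelium, 15.7 and 26.7 in fibroblasts and 0.54 and 1.06 in macrophages. Flna, a filamin that ties caveolae to actin, was 93.7 and 86.5 CPM in macrophages and 42.9 and 41.1 in endothelium (endothelium over macrophages -1.52 ± 0.18, 2.3e-08). Against macrophages 6 of the 21 were higher in endothelium and 4 in macrophages, where 33.3% of all genes were called. Between fibroblasts and macrophages 9 were higher in fibroblasts and 5 in macrophages, where 37.8% were called. Of 19 tested, 2 were called between venous and other endothelium (2.25% of all genes were called, 1.12% in each direction), both higher in venous cells and both named after their values were seen: Plvap, the diaphragm protein of caveolae and fenestrae (5.47 ± 0.53, adjusted p = 4.1e-20), and Insr, the insulin receptor (3.03 ± 0.39, 8.5e-12).

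The muscle forms were nearly absent. Cav3, the caveolin of striated muscle, had 60 and 13 UMIs in fibroblasts (11.4 and 3.94 CPM), 1 and 1 in endothelium, 8 and 3 in macrophages and 0 and 0 in mural cells, where 3 UMIs would be 33.3 and 53.7 CPM. It was higher in fibroblasts than in endothelium (endothelium over fibroblasts -3.67 ± 0.80, adjusted p = 0.00042) and in macrophages (fibroblasts over macrophages 3.14 ± 0.51, 6.8e-06). Cardiomyocyte markers were at 281 and 120 CPM in fibroblasts, 658 and 231 in endothelium and 543 and 220 in macrophages. In fibroblasts both Cav3 and these markers were lower in mouse 2. The part of cardiomyocyte RNA in the Cav3 values was not tested. Murc, the muscle cavin, had 4 and 0 UMIs in endothelium, 4 and 0 in fibroblasts, 0 and 0 in mural cells and 14 and 3 in macrophages.

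The profile of each member over the 8 groups in each mouse (16 sums) was set beside that of 5084 other genes by Pearson's r of log2(CPM + 10), as a description without a test, since the sums of 1 mouse share a library and depth. Nearest to Cav1 were Adgrf5 (0.990), Ptprb (0.989) and Flt1 (0.986), an adhesion receptor, a receptor phosphatase and a VEGF receptor of endothelium. Nearest to Cav2 were Cd300lg (0.974), Clec14a (0.965) and Tspan13 (0.962), and nearest to Sdpr Bcam (0.978), Slc9a3r2 (0.975) and Cd200 (0.968). For Ptrf these were Psmc3 (0.975), Id3 (0.950) and Smco4 (0.942), for Ehd2 Ppp1r2 (0.956), Tubb4b (0.953) and Crip2 (0.945), and for Prkcdbp, with the lowest values, Cnn3 (0.925), Sptbn1 (0.915) and Plpp3 (0.899). Among members r was 0.969 for Cav1 with Sdpr, 0.948 for Ptrf with Ehd2, 0.947 for Cav1 with Cav2, and 0.274 for Cav2 with Prkcdbp.

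Between the 2 mice no test was possible, each side being 1 library. In endothelium 5 members were higher in mouse 2, by a CPM ratio of 1.21 for Ptrf (1.11 to 1.32) up to 1.53 for Sdpr (1.45 to 1.61), and Prkcdbp was lower (0.719, 0.652 to 0.793; 95% intervals, counting error only). In fibroblasts the ratio was 1.26 (1.18 to 1.35) for Prkcdbp, 1.53 (1.37 to 1.72) for Ptrf and 1.85 (1.51 to 2.27) for Sdpr. Prkcdbp thus moved in opposite directions in the 2 classes. Cardiomyocyte markers and depth differed between the same libraries, and their part in these ratios was not tested.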

How the data were processed

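Single-cell 3' libraries of ventricular non-myocytes were made from 2 mice, 1 library each, and the deposited tables hold UMI counts per gene and barcode. Per the submitters' processing notes, Cell Ranger 2.2.0 and FastQC were used with build mm10; how barcodes were chosen and whether strand was used in counting are not given in the sources used here, so antisense overlap could not be separated. Members, gates and gene lists were chosen with earlier results of these data known.

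Barcodes under 500 UMIs, under 300 genes or over 10% mitochondrial UMIs were dropped, and doublets called per mouse by Scrublet in scanpy 1.11.5 (405 and 248) were removed. Cells passing no main gate (571 and 582) or several (188 and 130) entered no class. For each class the counts of a mouse were added up and compared by edgeR 4.0.16 (R 4.3.3; quasi-likelihood test, TMM factors, filterByExpr, mouse as a replicate block), on 8 sums for the 4 classes (11683 genes, 3 residual degrees of freedom) and on 16 sums for the 8 finer groups (10046 genes, 7 residual degrees of freedom), with Benjamini-Hochberg adjustment over all genes of a contrast. Fits were tested on simulated data first. The block was used because the classes come from the same 2 animals: differences between mice correlated between classes at r = 0.116 to 0.482 over 6298 genes. With mouse as a block, p-values measure the spread between the 2 mice left after their overall difference. In edgeR it was drawn towards a value shared over genes, weighted as 24.1 (4 classes) and 535.8 (finer groups) degrees of freedom. The p-values thus rest mostly on that shared spread, and only 2 mice were used.

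CPM values were computed here from the counts. Shares of cells were taken after thinning to 1000 UMIs, with exact Clopper-Pearson 95% intervals; intervals and the floor of 3 counts cover counting error only. Named in the text were all members; genes of the caveola list called in endothelium against fibroblasts or macrophages with at least 50 CPM in the higher class in both mice, with Cav3 and Murc in any case; Plvap and Insr, outside that rule and chosen after their values were seen; and the 3 genes nearest in profile to each member among those with at least 50 CPM in some group in both mice. Alternatives were DESeq2 1.42.0, no TMM factors, no low-count filter, no block, no fold threshold, other cell filters and gates, thinned cells, leaving out cells rich in cardiomyocyte or lymphatic UMIs, and leaving out each mouse; after the data were seen, subgates that share cells and classes without endothelial UMIs were added. Python 3.11.15, numpy 2.4.6, scipy 1.17.1 and pandas 2.3.3 were used.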

Additional observations from a re-analysis of the deposited data

Results flagged for a closer look

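Cells that passed none of the 4 gates (571 and 582), which no comparison used, carried every member above the macrophage level. Their mean over 2 mice was 235 CPM for Cav1, 192 for Cav2, 135 for Ptrf, 441 for Sdpr, 129 for Prkcdbp and 51.6 for Ehd2. Sdpr was 338 and 544 CPM and Cav1 205 and 266 in the 2 mice. The 5 endothelial markers summed to 594 and 633 CPM and the 5 capillary markers to 1535 and 1225 CPM in the same cells; their part in these levels was not tested.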

How the results depend on the processing

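Of the members' values between the 4 classes, 410 kept direction and side of the threshold over the alternatives, 12 fell below the threshold and 10 changed sign; for the finer groups these were 438, 61 and 35, and 12 passed the threshold newly. The causes were not tested. Without the replicate block, counts of members called were the same between the 4 classes, but 0 for arterial against other endothelium, endocardial against venous and arterial against venous cells, and Sdpr between Pi16 groups was -0.022. With cells of several gates kept, 0 members were called between endothelium and mural cells, arterial and other endothelium, endocardial and venous, and arterial and venous cells, and 1 between Pi16 groups. DESeq2 gave 0 for endocardial and arterial against other endothelium, endocardial against venous and arterial against venous cells; without TMM factors the first 3 were 0 as well. For arterial against other endothelium the count was 2 with no fold threshold, 5 with doubled gates, and 0 with no low-count filter, no doublet removal, no cell filter, thinned cells, cells rich in cardiomyocyte or lymphatic UMIs left out, and shared subgates under either scaling. Venous against other endothelium gave 1 with no fold threshold, 3 with doubled gates and 1 with shared subgates; endocardial against arterial 1 with shared subgates under either scaling; endocardial against venous 0 with doubled gates and with shared subgates under either scaling, and 2 with thinned cells; arterial against venous 2 with no fold threshold and 0 with doubled gates and shared subgates under either scaling. Doubled gates left 0 arterial cells in mouse 1 and 1 in mouse 2.

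Signs changed as follows (log2 fold change). Without TMM factors: Ptrf fibroblast to mural -0.14, Cav1 fibroblast to macrophage 0.33, endocardial to other Prkcdbp 0.12 and Ehd2 0.19, arterial to other Ehd2 0.30, venous to other Ptrf 0.014, endocardial to venous Ehd2 0.46. DESeq2: Ehd2 0.22 arterial to other and 0.19 endocardial to venous, Sdpr -0.013 between Pi16 groups. Cells of several gates kept: Prkcdbp endothelium to fibroblast -0.090, Ptrf fibroblast to mural -0.82, Cav1 fibroblast to macrophage 0.34, Sdpr endocardial to arterial 0.10, Pi16 groups Cav2 -0.86 and Sdpr -0.88. Thinned cells: Prkcdbp endothelium to fibroblast -0.030, Ehd2 fibroblast to mural 0.58, Cav2 arterial to venous -0.046. Without endothelial UMIs: Ehd2 fibroblast to mural 0.55 (mural cells alone) and 0.51 (all 3 classes), Cav1 fibroblast to macrophage 0.26. Doubled gates: venous to other Sdpr -0.89 and Prkcdbp -0.94; endocardial to arterial Cav1 0.81, Cav2 0.46, Ptrf 1.52, Sdpr 1.05 and Ehd2 10.75; endocardial to venous Cav2 0.13, Sdpr 0.032, Prkcdbp 0.42 and Ehd2 0.53; arterial to venous Cav2 -0.34 and Ehd2 -10.23; Pi16 groups Cav2 -0.34. Shared subgates: Sdpr -0.068 venous to other and 0.13 endocardial to arterial; without TMM factors also Ehd2 0.18 arterial to other and 0.072 endocardial to venous, and arterial to venous Cav1 0.17 and Ptrf 0.23. Sdpr between Pi16 groups was -0.073 with no doublet removal and -0.0040 with no cell filter.

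Leaving out each mouse gave Prkcdbp endothelium to fibroblast -0.30 to 0.46, Ehd2 fibroblast to mural -0.49 to 0.34, Cav1 fibroblast to macrophage -0.23 to 0.19, Ehd2 arterial to other -1.23 to 0.0093, Sdpr venous to other -0.0056 to 0.092, endocardial to arterial Prkcdbp -0.81 to 0.72 and Ehd2 -1.81 to 0.94, Ehd2 endocardial to venous -1.62 to 0.65, arterial to venous Cav2 -0.19 to 0.61 and Ehd2 -0.29 to 0.19, and Sdpr between Pi16 groups -0.081 to 0.14. With 1 mouse no residual degrees of freedom remain, so counts of calls could not be given. Depth limits the mural class (90219 and 55838 UMIs) most among the 4 classes, and endocardial and arterial cells among the finer groups.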

Other observations

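Among cells outside the 4 gates, those with at least 3 UMIs of lymphatic markers (10 and 23 cells) had Sdpr at 1227 and 2601 CPM, against 230 and 243 for Cav1, 230 and 347 for Cav2, 230 and 208 for Ptrf, 537 and 416 for Prkcdbp (7 and 12 UMIs) and 307 and 208 for Ehd2. Sdpr was the highest of the 6 there, as it was in endothelium and mural cells. Cells with Schwann cell markers (6 and 6) had Prkcdbp at 579 and 247 CPM, from 5 and 4 UMIs, while Cav1, Cav2 and Sdpr were at 0. Cells with T cell markers (100 and 89) had Cav1 at 14.1 and 9.49 CPM.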
